A study of Mus musculus with 13 samples.

Results

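When KAP1 was depleted from Hepa 1-6 cells, the deposited RNA polymerase II (PolII) list held 1752 peaks that lay in H3K9me3 regions of cells under standard culture and overlapped no peak of the deposited control PolII list. These peaks were selected on 3 deposited lists: each is a PolII peak of the Kap1 knockdown (Kap1 KD) that overlapped no PolII peak of the control and shared at least 1 bp with an H3K9me3 region. They made up 13.6% of the 12862 Kap1 KD PolII peaks and 20.4% of the 8573 Kap1 KD-only peaks. The control list is shorter, with 5015 peaks, and of its 695 peaks that overlapped none of the Kap1 KD, 186 (26.8%) lay in H3K9me3. The values that chose them are therefore given as a description and were not tested.

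Hepa 1-6 is an established murine hepatoma cell line. KAP1, H3K9me3, H3K27ac and H3K4me1 were profiled by chromatin immunoprecipitation and sequencing in cells under standard culture, and PolII and RNA polymerase III (PolIII) in cells fixed 5 days after lentiviral transduction. The control cells received a control short hairpin RNA according to the labels, while the methods name the vector without a hairpin, and the Kap1 KD cells received a hairpin directed against KAP1. Of 13 samples, 8 have a list and each list is 1 library, so no value here has a replicate error, and intervals cover counting over peaks only. H3K9me3 and KAP1 were mapped in cells under standard culture, and the lists do not show how either looked after the knockdown.

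KAP1, the product of Trim28, is a corepressor that Krüppel-associated box zinc finger proteins bring to DNA. It recruits the histone methyltransferase SETDB1, which writes H3K9me3, a mark of silenced chromatin best known at transposable elements and at tandem arrays of zinc finger genes. PolII transcribes protein-coding genes and many non-coding RNAs, whereas H3K27ac marks active promoters and enhancers and H3K4me1 marks enhancers.

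The sequence under these peaks was mostly present at several places in the genome. Each peak was represented by the 300 bp around its centre, and every 32-base word of that window was counted over the whole mm9 assembly on both strands. A window was called multicopy when at least 0.5 of its words occurred at 2 or more places. The 6 windows below, on the plus strand of mm9, are examples with low and intermediate copy numbers, with each base that lies in a repeated word in capitals.
Gm10681, chr3:98354817-98355116: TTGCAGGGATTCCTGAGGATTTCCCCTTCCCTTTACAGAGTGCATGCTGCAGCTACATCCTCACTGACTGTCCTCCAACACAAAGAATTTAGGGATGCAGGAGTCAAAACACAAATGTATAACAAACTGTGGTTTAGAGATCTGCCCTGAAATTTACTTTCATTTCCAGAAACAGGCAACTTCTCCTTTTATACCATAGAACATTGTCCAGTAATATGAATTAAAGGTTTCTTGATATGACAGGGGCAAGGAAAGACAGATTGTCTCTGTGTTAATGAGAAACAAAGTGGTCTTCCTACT
Hsd3b4, chr3:98301349-98301648: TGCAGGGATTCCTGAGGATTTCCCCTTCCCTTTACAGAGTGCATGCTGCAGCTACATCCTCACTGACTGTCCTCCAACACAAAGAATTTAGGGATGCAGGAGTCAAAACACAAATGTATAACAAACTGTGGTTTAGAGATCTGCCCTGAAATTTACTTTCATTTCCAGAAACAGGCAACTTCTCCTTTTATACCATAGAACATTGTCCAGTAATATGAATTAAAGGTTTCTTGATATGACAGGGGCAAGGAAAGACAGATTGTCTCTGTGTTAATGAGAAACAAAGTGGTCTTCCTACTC
Chromosome 4, score 237, chr4:20781317-20781616: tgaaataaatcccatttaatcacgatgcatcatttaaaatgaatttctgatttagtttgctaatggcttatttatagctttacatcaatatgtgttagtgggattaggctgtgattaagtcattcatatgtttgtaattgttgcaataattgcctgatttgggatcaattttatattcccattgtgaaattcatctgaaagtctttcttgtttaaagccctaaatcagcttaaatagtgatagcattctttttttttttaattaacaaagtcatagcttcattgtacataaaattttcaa
Chromosome 4, score 252, chr4:20786429-20786728: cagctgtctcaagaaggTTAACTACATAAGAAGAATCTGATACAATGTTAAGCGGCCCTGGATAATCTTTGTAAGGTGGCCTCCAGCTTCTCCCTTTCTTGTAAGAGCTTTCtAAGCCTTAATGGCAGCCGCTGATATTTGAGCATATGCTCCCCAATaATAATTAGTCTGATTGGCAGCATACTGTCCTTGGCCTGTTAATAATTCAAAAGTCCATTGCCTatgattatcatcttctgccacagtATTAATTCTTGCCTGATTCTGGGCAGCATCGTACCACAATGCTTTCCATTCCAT
Mup2, chr4:60134782-60135081: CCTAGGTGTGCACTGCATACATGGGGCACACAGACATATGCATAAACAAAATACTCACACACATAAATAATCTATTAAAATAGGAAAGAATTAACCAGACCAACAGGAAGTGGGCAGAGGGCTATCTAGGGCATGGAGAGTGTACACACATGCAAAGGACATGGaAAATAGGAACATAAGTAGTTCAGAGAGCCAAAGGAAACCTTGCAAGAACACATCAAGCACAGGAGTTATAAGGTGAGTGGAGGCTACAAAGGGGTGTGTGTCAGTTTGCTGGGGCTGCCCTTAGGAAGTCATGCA
Vmn2r87, chr10:129923628-129923927: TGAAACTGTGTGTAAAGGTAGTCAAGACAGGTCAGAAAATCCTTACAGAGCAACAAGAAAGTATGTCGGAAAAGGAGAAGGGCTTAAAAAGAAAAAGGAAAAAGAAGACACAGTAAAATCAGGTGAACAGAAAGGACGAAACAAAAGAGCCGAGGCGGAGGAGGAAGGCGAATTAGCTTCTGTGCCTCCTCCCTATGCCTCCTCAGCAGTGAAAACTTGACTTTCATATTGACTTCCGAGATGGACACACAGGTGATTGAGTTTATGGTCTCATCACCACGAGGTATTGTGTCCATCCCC
The windows of the peaks over Gm10681 and Hsd3b4 were identical over the 299 bases that align, with 0 differences. Their words had a median of 4 places. Both windows are named for a gene that the peak overlapped, but their centres were intergenic. The nearest transcription start sites of protein-coding genes lay 12994 and 12459 bp away. Hsd3b4 belongs to the 3β-hydroxysteroid dehydrogenase family of steroid-metabolizing enzymes. The first chromosome 4 window held no repeated word, while its neighbour about 5 kb away had 257 of 300 bases in repeated words, although the median word there had 1 place and the window counts as single-copy. In Mup2, which encodes a major urinary protein, 299 bases were in repeated words with a median of 9 places. In Vmn2r87, which encodes a vomeronasal receptor, the median was 43 and the most frequent word had 608 places.

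Multicopy windows made up 84.3% of the 1752 peaks (1477, 95% Wilson interval 82.5 to 85.9%). Among Kap1 KD-only PolII peaks outside H3K9me3 the share was 12.5% (11.7 to 13.3%, 852 of 6821), giving an odds ratio of 37.6 (95% interval 32.4 to 43.7, Fisher's exact test). With 1 peak, the highest-scoring, for each group of neighbours within 50 kb it was 22.5 (18.7 to 27.2). Among the 186 Kap1 KD PolII peaks in H3K9me3 that overlapped a control peak it was 61.8% (54.7 to 68.5%), an odds ratio of 3.31 (2.36 to 4.63, Fisher's exact test, p = 3.34e-12). That second difference was not detected within quintiles of the PolII score (Mantel-Haenszel odds ratio 1.04, 0.686 to 1.58). H3K9me3 regions with no PolII peak of either condition had multicopy windows in 64.1% of 64040 cases. Their windows were scored on words that start every 16 bases, not on every word. These multicopy comparisons were added after the data were seen. The mapping options, which decide how a read that matches several places is handled, were not stated, and their part in the calls was not tested.

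**Figure D1:**
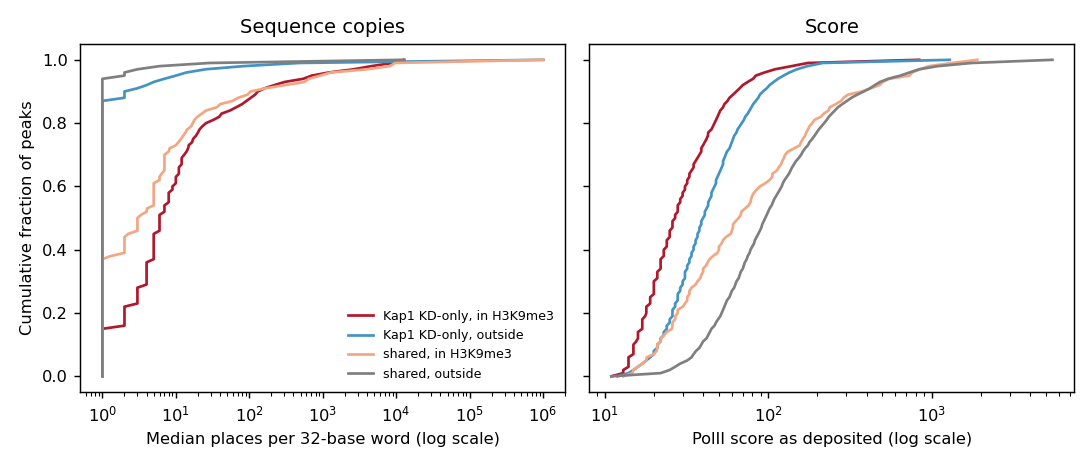
Cumulative fraction of Kap1 KD PolII peaks against the median number of genomic places of the 32-base words in the 300 bp window (left, log scale) and against the PolII score as deposited (right, log scale), by class. The Kap1 KD-only peaks in H3K9me3 had a median of 6 places and a median score of 27, against 1 place and a score of 40 for those outside H3K9me3.

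The copy number of the windows ranged widely. The median word had 1 place in 275 of the peaks, over 1 to 5 places in 514, over 5 to 20 in 563, over 20 to 100 in 187 and over 100 in 213. Of the 1752 peaks, 1085 (61.9%) shared a 32-base word with another of them, and they fell into 266 families linked by such words. The largest family held 160 peaks on 20 chromosomes, 27 of them on chromosome X. Of these 160, 60 had an active mark and 4 had KAP1. The second largest held 81 peaks on 17 chromosomes, of which 33 had KAP1 and 9 an active mark. Peaks of a family share sequence and are not independent sites, and no difference between families was tested.

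The peaks overlapped H3K9me3 deeply as a rule. A median of 97.8% of a peak was covered (lower quartile 72.5%), 817 peaks lay wholly inside H3K9me3 and 1494 were covered over at least 0.5 of their length. They touched 1797 distinct H3K9me3 regions. Of the 1938 Kap1 KD PolII peaks in H3K9me3, 90.4% had no control peak, whereas 66.7% of all Kap1 KD PolII peaks had none. Both shares follow from the lists that define the class. At the edges of the rule, the least H3K9me3 overlap inside was 5 bp (in Mctp2), and the nearest peak left out lay 25 bp from an H3K9me3 region. The closest control peak to one inside was 8 bp away, at Derl1, and the least control overlap of a peak left out was 25 bp, in Tmtc2.

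The score, whose meaning was not stated, had a median of 27 (quartiles 19 to 42, range 11 to 839) and the width a median of 374 bp, against a score of 40 and 677 bp for Kap1 KD-only peaks outside H3K9me3. Among multicopy windows the medians were close, with a score of 25 in both classes and widths of 321 and 305 bp. Of the 1752, 49.9% fell in the lowest quintile of the Kap1 KD PolII scores and 3.42% in the highest. The nearest control PolII peak was a median of 83.6 kb away, and 19 peaks had one within 1 kb.

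Peaks of the control list are numbered in genome order, and 2290 of the numbers (31.3%) are missing, so the deposited list does not hold every numbered call. The Kap1 KD PolII list lacks 3745 of its numbers (22.6%). At least 1 such number was missing between the neighbouring control peaks for 63.8% of the 1752 peaks (1118), against 20.5% of Kap1 KD-only peaks outside H3K9me3. Whether a control call stood at these sites cannot be told from the list. Without those sites, 634 of the 1752 peaks remained, and the Kap1 KD-only peaks outside H3K9me3 were filtered in the same way. Between the filtered classes the odds ratios were 27.8 for a multicopy window (22.7 to 34.1) and 0.61 for KAP1 (0.477 to 0.772). They were 0.159 for an active mark (0.129 to 0.195) and 0.105 for a start site of a protein-coding gene within 1 kb (0.0727 to 0.148). For PolIII the odds ratio was 5.0 (3.11 to 7.92). The values over all 1752 peaks are given with each feature.

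KAP1 itself was found at few of the sites. A KAP1 peak overlapped 158 of the 1752 (9.02%, 7.77 to 10.5%), against 19.7% (18.7 to 20.6%) of Kap1 KD-only peaks outside H3K9me3, an odds ratio of 0.405 (0.338 to 0.483, Fisher's exact test, adjusted p = 3.55e-28). Shared PolII peaks in H3K9me3 had KAP1 at 38.2% (odds ratio 0.161, 0.113 to 0.229, Fisher's exact test, adjusted p = 5.28e-23). Within quintiles of the PolII score the odds ratio against these shared peaks was 0.351 (0.232 to 0.53) for KAP1, 0.51 (0.358 to 0.727) for an active mark and 0.401 (0.226 to 0.714) for a nearby start site. Above the median score of the list, the KAP1 odds ratio against Kap1 KD-only peaks outside H3K9me3 was 0.661 (0.476 to 0.905). When split by copy number, a split chosen after the data were seen, the shares among multicopy windows were 7.31% and 6.46% (odds ratio 1.14, 0.808 to 1.63), and among single-copy windows 18.2% and 21.5% (odds ratio 0.809, 0.58 to 1.11), and neither passed the test (adjusted p = 0.449 and 0.23, Fisher's exact test).

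Active histone marks were also sparse. H3K27ac overlapped 70 of the 1752 peaks (4.0%, 3.17 to 5.02%) and H3K4me1 369 (21.1%, 19.2 to 23.0%). Outside H3K9me3 the shares of Kap1 KD-only peaks were 49.7% and 44.0%. Either mark was present at 21.8% against 59.9% (odds ratio 0.186, 0.164 to 0.211, Fisher's exact test, adjusted p = 4.07e-185) and against 47.3% of shared peaks in H3K9me3 (odds ratio 0.311, 0.225 to 0.429, adjusted p = 7.02e-13). The direction held among single-copy windows, where either mark was at 41.8% of the peaks and at 64.7% of those outside H3K9me3 (odds ratio 0.392, 0.304 to 0.504). Among multicopy windows, which hold most of the class, the shares were closer, at 18.1% and 26.4% (odds ratio 0.615, 0.5 to 0.757), with H3K4me1 at 17.7% and 20.8% and H3K27ac at 2.1% and 16.2%. Neither KAP1 nor an active mark was found at 1263 of the 1752.

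**Figure D2:**
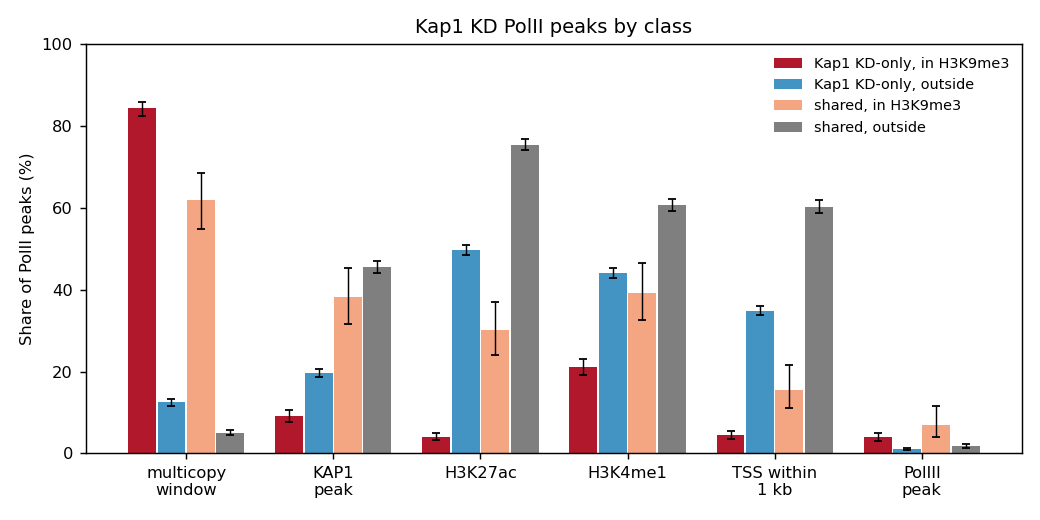
Share of Kap1 KD PolII peaks (%) with each feature, in the 4 classes set by overlap with a control PolII peak (shared or Kap1 KD-only) and with H3K9me3. Bars are shares, and lines are 95% Wilson intervals. The Kap1 KD-only peaks in H3K9me3 stand highest for multicopy windows (84.3%) and lowest for KAP1 (9.02%), H3K27ac (4.0%), H3K4me1 (21.1%) and transcription start sites (4.45%).

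Most of the sites were away from genes. The centre of 63.8% was intergenic, of 26.9% in an intron and of 4.91% in an exon. It lay within 1 kb of a transcription start site (TSS) of a protein-coding gene in 4.45% (3.58 to 5.52%), against 34.9% outside H3K9me3 (odds ratio 0.087, 0.0681 to 0.11, Fisher's exact test, adjusted p = 1.79e-177) and 15.6% of shared peaks in H3K9me3 (odds ratio 0.253, 0.157 to 0.414, adjusted p = 7.39e-08). With the TSS of any annotated gene the first odds ratio was 0.156 (149 of the 1752 peaks). Among multicopy windows the first comparison gave 3.99% and 9.39% (odds ratio 0.402, 0.279 to 0.576). The second difference did not pass when at least 0.5 of the peak had to be in H3K9me3 (odds ratio 0.606, adjusted p = 0.212, Fisher's exact test) or among multicopy windows (0.642, adjusted p = 0.371).

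PolIII, which transcribes transfer RNAs and 5S ribosomal RNA, overlapped 69 of the 1752 (3.94%), against 1.1% of Kap1 KD-only peaks outside H3K9me3 (odds ratio 3.69, 2.61 to 5.21, Fisher's exact test, adjusted p = 1.58e-13). Of these 69, 60 met a PolIII peak of the control and 12 one of the Kap1 KD, and 64 had a multicopy window. The PolIII lists differ in length, with 2772 peaks in the control and 431 in the Kap1 KD. The counts of 60 and 12 are thus not a measure of PolIII change. By Fisher's exact test the difference did not pass among multicopy windows (odds ratio 1.63, adjusted p = 0.071), among single-copy windows (2.11, adjusted p = 0.14) or with PolIII of the Kap1 KD alone (1.56, adjusted p = 0.209). Against the 13 of 186 shared peaks in H3K9me3 (6.99%), the odds ratio was 0.546 (0.292 to 1.1, adjusted p = 0.0557, Fisher's exact test), which missed the threshold.

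The base composition differed in the same windows, given here without a test. The median G+C content was 46.3% and the median number of CpG dinucleotides 2, against 51.3% and 5 in Kap1 KD-only peaks outside H3K9me3. The GC box GGGCGG, bound by Sp1 family factors at many promoters, was read on either strand in 4.34% of the windows, against 26.2% of all Kap1 KD PolII windows. TATAAA was found in 17.8% against 11.8%, and CCAAT in 45.1% against 31.0%. TGCCGC, the core that the KAP1-recruiting protein ZFP57 binds when methylated, was in 3.65% against 11.6%. Shared PolII peaks in H3K9me3 held TGCCGC in 3.76% and the GC box in 7.53%, and multicopy windows of Kap1 KD-only peaks outside H3K9me3 had a median G+C content of 46.7% and 2 CpG dinucleotides. TGAGTCA, the AP-1 site, was in 4.28% against 8.46%. These matches are letters in a window and not sites of binding.

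Of the 10 highest-scoring peaks, 9 had KAP1, 7 had H3K27ac and 4 had a multicopy window, and H3K9me3 covered between 3.86% and 60.4% of them. For 8 of the 10, at least 1 control number was missing between the neighbouring control peaks. The highest, with a score of 839, spanned 7284 bp over Actg1, which encodes cytoplasmic γ-actin (chr11:120204691-120211974). H3K9me3 covered 657 bp of it and KAP1 4300 bp, and its centre was 42 bp from a TSS. In its window 84.8% of the words were repeated, and 1 control number was missing there. The paper gives a PolII pausing index, the ratio of PolII at the start site to the gene body, for Actg1 in WT and Kap1 KD cells. A peak missing from the control list is thus not evidence that PolII was absent there. The second, with a score of 492, was intergenic on chromosome 3 (chr3:96110969-96119487) and had neither KAP1 nor an active mark. A peak over 2900097C17Rik followed (chr2:156213111-156218711, score 324), with all words of its window repeated.

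The pair at Gm10681 (chr3:98352430-98357503) and Hsd3b4 (chr3:98298965-98304032), whose windows are shown above, had scores of 271 and 268 and widths of 5074 and 5068 bp. KAP1 covered both from end to end, and H3K9me3 covered 38.6% of each. H3K27ac covered 4001 bp at Gm10681 and 4778 bp at Hsd3b4, and H3K4me1 263 and 390 bp. Ccdc48 (chr6:87680303-87686023, score 263) had KAP1, H3K27ac and H3K4me1 and no repeated word in its window. Rrbp1, which encodes a ribosome-binding protein of the endoplasmic reticulum, had a peak of score 211 centred 4 bp from a TSS, with KAP1 and no repeated word in its window.

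Zinc finger genes, many of which encode the proteins that recruit KAP1, carried one of the 1752 peaks at 13 of 399 genes (3.26%), beside 1.7% of all 22380 protein-coding genes. The highest-scoring lay over Zfp692 and Zfp672 (chr11:58127748-58130643, score 156), with KAP1 and no repeated word in its window. Zfp771 had KAP1 as well (score 114), and Zfp498 (74), Zfp316 (64) and Zfp697 (58) had none. Olfactory and vomeronasal receptor genes, which sense odorants and pheromones, had such a peak at 18 of 1441 (1.25%), 12 of them Vmn2r genes, near the share of all protein-coding genes. Kap1 KD-only PolII peaks outside H3K9me3 lay over 0.555% of the receptor genes and over 16.8% of all protein-coding genes. Of the imprinted genes on the list, Copg2 was the 1 of 32 with a peak. Clustered protocadherin (0 of 24), heat shock (0 of 76) and histone genes (0 of 67) had none, cytochrome P450 genes had 1 of 104 (Cyp3a11) and ribosomal protein symbols annotated as protein-coding 2 of 150 (Rpl27-ps3 and Rpsa-ps10). A peak also lay over Rpsa-ps2, Rpl5-ps1 and Rpl28-ps1, which are not annotated so. Among small RNA genes, 6 of 1577 miRNA genes had one, including Mir692-2a and Mir692-2b, and 1 of 332 rRNA genes, while 0 of 1423 snRNA, 0 of 1552 snoRNA and 0 of 487 misc_RNA genes had one. Of 21 Mup genes, a list added after the values were seen, 3 had one (Mup2, Mup15 and Mup19).

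The peaks were unevenly spread over the chromosomes. Chromosome 4 held 232, chromosome 5 196, chromosome 15 172, chromosome 7 169 and chromosome X 156. Per 1000 H3K9me3 regions, chromosome 17 had the most (49.1, 106 peaks), followed by chromosome 4 (46.3), while chromosome 15 had 24.2, chromosome X 27.6 and chromosome 12 the fewest (6.67). On chromosome X, 66.4% of all Kap1 KD-only peaks were in the class, against 7.88% on chromosome 11, and all 156 windows were multicopy, as were all 62 on chromosome 14, 21 on chromosome 9 and 15 on chromosome 16. On chromosome 15 only 35.5% of the windows were multicopy, and 111 of the 275 single-copy windows (40.4%) lay there. Chromosome 15 also had the most Kap1 KD-only peaks of any chromosome, 1145, and the most H3K9me3 regions, 7111. The largest groups of single-copy peaks, with 5 each, were at Fam49b and Asap1 on chromosome 15 (chr15:63840306-63932223) and at Mtus2 and Slc7a1 on chromosome 5 (chr5:149118110-149198383). Active marks were present at 5 and 4 of them and KAP1 at 0 of each.

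**Figure D3:**
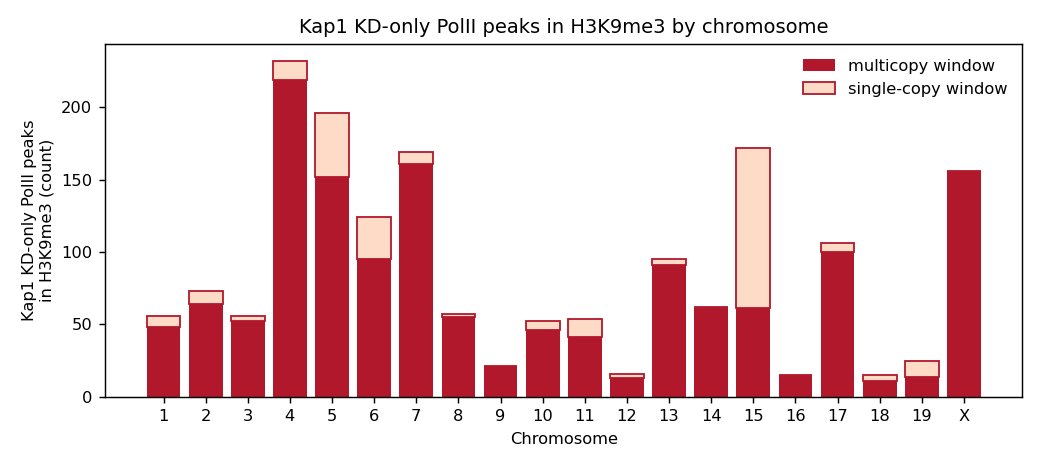
Number of Kap1 KD-only PolII peaks in H3K9me3 on each chromosome, divided into those with a multicopy and those with a single-copy 300 bp window. Chromosome 4 has the most (232), chromosomes 9, 14, 16 and X have multicopy windows alone, and chromosome 15 has 61 multicopy windows of 172.

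They also came in groups. Joined at 50 kb, the 1752 peaks formed 890 groups, of which 631 held 1 peak and 67 held 5 or more. These 67 groups held 36.2% of the peaks. The largest (chr5:95156023-95688317, 532 kb) had 37, all with multicopy windows, among 44 Kap1 KD and 6 control PolII peaks and 292 H3K9me3 regions, over predicted genes such as Gm3176 and Gm6367. In this group 1 peak had KAP1 and 0 an active mark, and 44 control numbers were missing between the control peaks around and within it. The next (chr17:6219332-6594556, 36 peaks) ran from Tulp4 over Tmem181a, Dynlt1a and Dynlt1b, with 9 control PolII peaks and 9 missing numbers. A group on chromosome 4 (chr4:60398485-60739752, 22 peaks) lay in the Mup gene array, with 206 H3K9me3 regions, 0 control PolII peaks and 47 missing numbers. Another covered Vmn2r38, Vmn2r39 and Vmn2r40 on chromosome 7 (chr7:9069143-9318299, 17 peaks, 45 missing numbers). A group at H60b and Raet1c, ligands of the NKG2D receptor (chr10:21893321-22077560), differed in having an active mark at 8 of its 12 peaks.

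**Figure D4:**
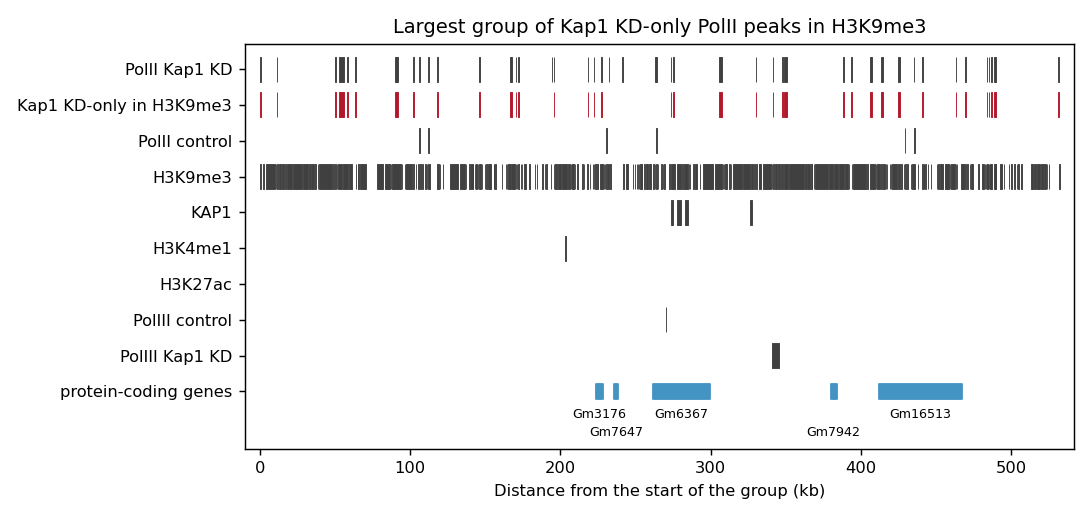
Deposited peaks and regions of each list over the 532 kb group on chromosome 5, drawn to scale against the distance from its start (kb), with the protein-coding genes below. The 37 Kap1 KD-only PolII peaks in H3K9me3 (red) are spread over the whole group, beside 6 control PolII peaks and 4 KAP1 peaks.

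The cell label was checked at gene starts, by peaks within 250 bp of the 5′ end. Of the hepatocyte-lineage genes, Apoe and Foxa2 had PolII in both conditions and Trf in the Kap1 KD alone, while Alb, Afp, Ttr, Apoa1, Apoa2, Apob, Serpina1a, Fgb and Hnf4a had none. H3K27ac was present at Alb, Afp, Apoe, Trf, Fgb, Hnf4a and Foxa2. Of 8 genes of other lineages, 0 had PolII in either condition and 1, Col1a1, had H3K27ac.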

How the data were processed

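Reads were mapped by the authors with Bowtie to the mouse assembly mm9, KAP1 and PolII peaks were called with MACS against total input, and histone mark regions with ChIP-Part. The PolIII caller, mapping options and filters were not given in the sources used here. The deposited lists hold positions and, for the polymerases and KAP1, the authors' score for each peak, whose meaning for PolII and PolIII was not stated. The score only ranked or stratified peaks. The files hold no reads, so depth is unknown. Overlap required 1 bp. Genes and TSSs came from GENCODE M1 and sequence from NCBIM37, the same build. Classes were compared with a two-sided Fisher's exact test and conditional odds ratios (scipy 1.17.1) and Benjamini-Hochberg adjustment over 8 tests. Peaks are not replicates, so a p-value says nothing of the spread between cultures. The functions were tested on simulated data. The members and lists were chosen with earlier results of these data known. Named peaks were the 10 highest-scoring, then up to 5 by score with KAP1, a TSS, H3K27ac or PolIII, or over each gene list. The groups, families, windows by copy number and the Mup genes were chosen after the data were seen. The 5 inputs were not analysed here. One gene of the marker list is not reported here.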

Additional observations from a re-analysis of the deposited data

How the results depend on the processing

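Of 306 alternative values of the 10 comparisons, 286 kept their direction and side of the threshold. Most of the 306 left out 1 chromosome at a time and kept most of the peaks, so the count says little about the other settings. The number of peaks was 323 above the median score, 634 without control numbering gaps, 890 with 1 peak for each 50 kb group and 275 with single-copy windows alone. Leaving out each chromosome in turn gave 1520 to 1737 peaks. Copy number alternatives were chosen after seeing the data. In them, the KAP1 odds ratio against peaks outside H3K9me3 was 0.809 (single-copy) and turned to 1.14 (multicopy), and the PolIII odds ratio was 2.11 and 1.63. With PolIII of Kap1 KD alone that ratio was 1.56. Against shared peaks, the TSS odds ratio was 0.606 with at least 0.5 of the peak in H3K9me3 and 0.642 among multicopy windows. The PolIII odds ratio against shared peaks passed the threshold at 0.385 (0.5 of the peak in H3K9me3), 0.387 (centre in H3K9me3), 0.389 (multicopy), 0.472 (control PolIII alone) and 0.452 (score quintiles). Without chromosome 2, 5, 8, 10 or 11 it was 0.507, 0.517, 0.509, 0.523 and 0.523. It turned to 1.3 (single-copy) and 1.28 (PolIII of Kap1 KD alone), each with 1 shared peak. The multicopy odds ratio against shared peaks was 1.04 within score quintiles. The causes were not tested. No paired analysis was possible because each group is 1 library. The intervals assume independent peaks, which neighbouring and repeated peaks are not.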
